A study of Mus musculus with 36 samples.

Results

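Dendritic cells are antigen-presenting cells of the airway, and the genes that mark them were followed here in lung macrophages of mice with dehydrated airways. The 10 transcripts were Irf4, Irf8, Batf3, Zbtb46, Flt3, Ccr7, Cd209a, Clec9a, Xcr1 and Itgae, chosen by gene symbol from the 18820 symbols that the arrays measured with a feature of their own, and each was read by 1 feature. The Scnn1b-Tg mouse (Tg) carries a transgene for a subunit of the airways' sodium channel, driven in club cells of the airway epithelium, where it dries the airway surface and lets mucus collect. Lavage cells were taken from male Tg mice and their wild-type littermates (WT), all C57BL/6N, at postnatal days (PND) 0, 3, 10 and 42 under specific-pathogen-free (SPF) housing and at PND 42 under germ-free (GF) housing. There were 36 arrays in 10 groups, with 3 Tg and 3 WT arrays at PND 0, 4 of each at PND 3, at PND 10 and at PND 42 in SPF housing, and 3 of each at PND 42 in GF housing. Each array of the pups held cells pooled from 3 animals of 1 genotype, and each array of PND 42 held cells of a single mouse. Granulocytes had been depleted with antibody-coated magnetic beads, and the study's methods state that a few lymphocytes, dendritic cells and epithelial cells may stay in such preparations. In the study's cell counts, every adult Tg fraction still held a few eosinophils, while nearly all adult WT fractions held none. Some adult fractions held neutrophils, and the lymphocyte shares of adult Tg and WT fractions overlapped in both housings. In RNA of a mixed preparation a larger number of cells of a type and more RNA per cell cannot be told apart.

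Conventional dendritic cells arise from precursors that carry Flt3, the receptor of the growth factor Flt3 ligand, and they fall into a type 1 lineage that depends on Irf8 and Batf3 and a type 2 lineage in which Irf4 acts. Zbtb46 is a transcription factor of both lineages. On maturation these cells switch on Ccr7, the chemokine receptor that leads them to lymph nodes. Several of the 10 genes are also used by other lung cells, among them Irf8 and Irf4 in macrophages, Ccr7 and Itgae in T cells, and Irf4 in lymphocytes.

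Values are log2 intensities, on which a difference of 1 is a doubling, and levels of different genes are not set against each other because each probe set has its own response. The median feature of an array lay between 3.72 and 4.06, and a group whose mean was at or under 4.06 is described as near background. The preparations carried the genes of alveolar macrophages, of which 18 of 18 measured lay above background in all 4 groups of PND 42. The transgene's own transcript, Scnn1b, averaged 5.72 ± 0.35 in Tg and 3.27 ± 0.20 in WT mice at PND 3 (SD, n = 4 each), while at PND 0 Tg replicate 3 had 5.47 and lay within the WT values of 4.06 to 6.68. At PND 10 and 42 its group means were near background in both genotypes. In SPF mice of PND 42 the genotypes overlapped, with 3.59 ± 0.13 in Tg and 3.41 ± 0.20 in WT mice (SD, n = 4 each), so that Scnn1b gives no check of the labels there. In GF mice the Tg arrays had 3.47, 3.99 and 4.18, all above the 3.30, 3.11 and 3.21 of the WT arrays. The spread within groups was wider at PND 0 than at other ages, with an SD of 1.39 times the average over the 10 groups in Tg and 1.48 times in WT cells, against 0.757 to 0.944 times in the other groups. At PND 0 all 8 skeletal muscle genes and 4 of 6 erythroid genes were also higher in Tg than in WT cells, and their part in the other PND 0 values was not tested.

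The levels of the 10 transcripts fell into 3 patterns. Irf8 was above background in 10 of 10 groups. Ccr7 was above background in 8 groups, Irf4 in 7, Batf3 in 6, Clec9a in 5, and Flt3 and Itgae in 2 each, which were the adult Tg groups. Cd209a, Zbtb46 and Xcr1 were above it in 0 of 10 groups, so that the defining markers of conventional dendritic cells (Zbtb46) and of the type 1 subset (Xcr1) were near background in every group, adult Tg mice included. The limit of 4.06 was set by an array of PND 0, while adult arrays had medians of 3.74 to 3.85. Flt3 passed it narrowly in adult Tg cells, with means of 4.09 in SPF and in GF mice. Itgae lay just under it in adult WT cells, at 4.01 in SPF and 3.94 in GF mice. A probe set near background can understate a level or a change, and each gene is described on its own.

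**Figure D1:**
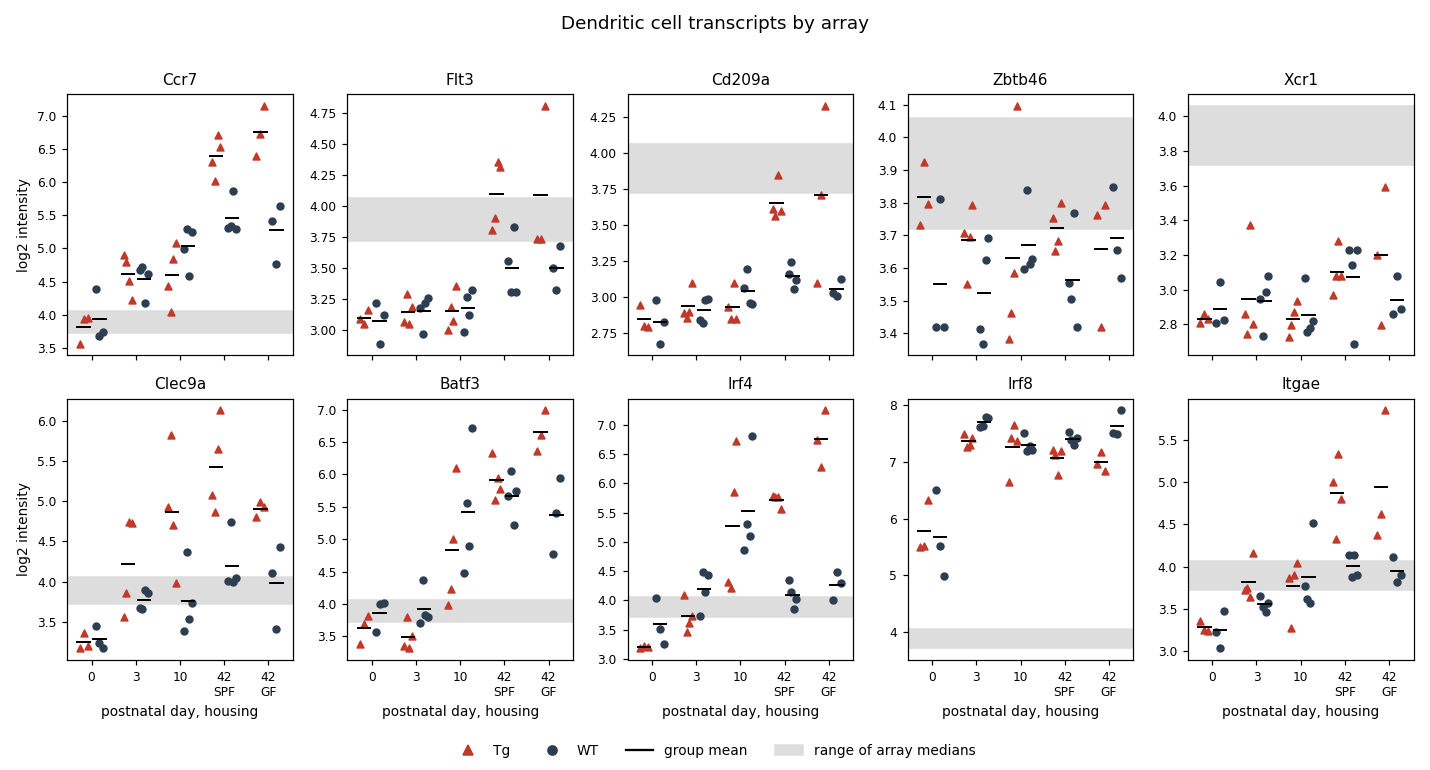
Log2 intensity of each of the 10 transcripts on the 36 arrays, by postnatal day and housing, with Tg arrays as triangles to the left of WT arrays as circles, the group mean as a bar and the range of array medians (3.72 to 4.06) in grey. Irf4 and Ccr7 separated Tg from WT arrays completely at PND 42 in both housings, while Zbtb46 and Xcr1 lay in or under the grey band in group mean.

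In adult mice the genotype difference lay on the side of higher levels in Tg cells. At PND 42 in SPF housing 6 of the 10 transcripts rose in Tg mice and 0 fell (limma, adjusted p of at most 0.05), against 2.72% of all 28940 features called higher and 1.77% called lower. In GF housing 4 of the 10 rose and 0 fell, against 3.14% of all features called higher and 1.77% called lower. Irf4, Ccr7, Cd209a and Itgae rose in both housings, and Clec9a and Flt3 rose in SPF mice. The median change of the 10 was 0.55 in SPF and 0.79 in GF mice, where the median over all features was -0.02 in each housing. Of these, Irf4 and Clec9a in SPF mice and Irf4, Ccr7 and Itgae in GF mice changed by at least 2-fold. In a fit on the compared arrays alone the calls of Flt3 in SPF mice (adjusted p = 0.0645) and of Cd209a and Itgae in GF mice (limma, adjusted p = 0.308 and 0.215) were lost. At PND 0 and at PND 3 limma called 0 of the 10, and 0 had an unadjusted p under 0.05, while 2.74% of all features were called higher and 1.59% lower in Tg at PND 0, and 2.17% higher and 1.87% lower at PND 3. At PND 10 limma again called 0 of the 10, 1 had an unadjusted p under 0.05, and 1.13% of all features were called higher and 0.435% lower.

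**Figure D2:**
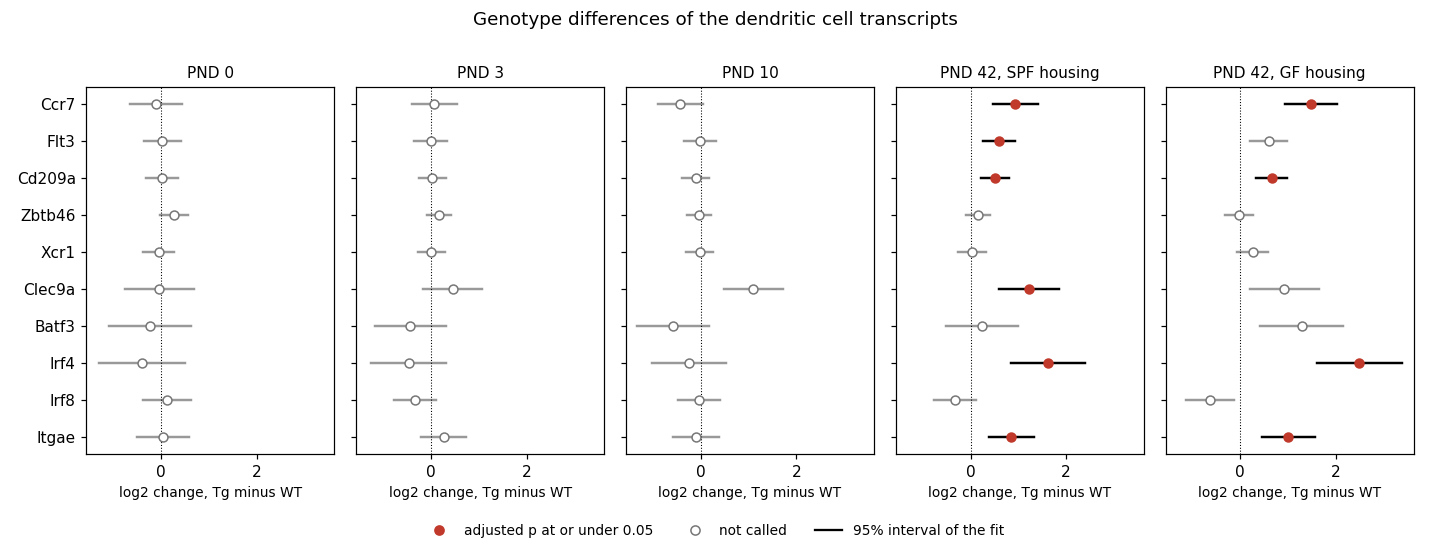
Log2 change of each transcript in Tg relative to WT cells in 5 panels by age and housing, with 95% intervals of the limma fit and filled points where the adjusted p was at or under 0.05. Filled points appear only in the panels of PND 42, 6 in SPF and 4 in GF housing, and all lie to the right of 0.

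Promoter windows from RefSeq (GRCm38.p6) were matched to 8 of the 10 genes, and those of Irf4 and Cd209a are shown because both transcripts were called in both housings. Those of Ccr7 and Itgae were not analysed here. Each run below is 300 bases around the annotated start, 5′ to 3′ on the gene's own strand, with capitals for matches on either strand to GGAANNGAA (the composite site of ETS factors and IRF4 or IRF8), GAAANNGAA (the core of the interferon-stimulated response element), GAGGAA (the PU.1 core) or TGANTCA (AP-1). The Irf4 window lies on chr13:30748983-30749282, plus strand, and the Cd209a window on chr8:3748935-3749234, minus strand.
Irf4: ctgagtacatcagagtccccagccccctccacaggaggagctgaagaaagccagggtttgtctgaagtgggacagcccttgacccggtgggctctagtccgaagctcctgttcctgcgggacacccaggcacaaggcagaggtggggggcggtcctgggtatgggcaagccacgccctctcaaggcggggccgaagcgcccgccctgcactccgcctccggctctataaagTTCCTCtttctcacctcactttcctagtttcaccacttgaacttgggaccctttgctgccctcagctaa
Cd209a: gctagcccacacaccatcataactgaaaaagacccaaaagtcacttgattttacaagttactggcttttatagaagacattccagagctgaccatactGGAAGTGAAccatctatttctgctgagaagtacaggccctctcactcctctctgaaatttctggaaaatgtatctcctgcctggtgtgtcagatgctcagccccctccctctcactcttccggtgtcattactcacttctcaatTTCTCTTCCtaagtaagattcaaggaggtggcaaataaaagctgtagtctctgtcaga
The Irf4 window held 1 match, a PU.1 core, whose letters occur in 28.3% of the 32851 promoter windows of that length. The Cd209a window held 2 matches to the ETS-IRF composite site, which 8.24% of all windows have, and they did not overlap. Of the other transcripts called in SPF mice, the window of Clec9a had 1 match, to the response element core (8.56% of all windows), and that of Flt3 had 0. The AP-1 letters were in 0 of these 4 windows and in 7.81% of all. A match describes letters in a window and is no evidence that a factor binds there.

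Irf4, an interferon regulatory factor of type 2 dendritic cells, lymphocytes and alternatively activated macrophages, had the largest change of the 10 in either housing. In SPF mice of PND 42 it measured 5.78, 5.77, 5.77 and 5.55 on the Tg arrays, against 4.35, 4.14, 3.86 and 4.03 on the WT arrays. All 4 Tg arrays lay above all 4 WT arrays, by more than 1 log2 unit. The change was 1.62 ± 0.38 (SE), or 3.08-fold (adjusted p = 0.00788). In GF mice the Tg arrays had 6.74, 6.28 and 7.24, against 4.00, 4.49 and 4.29 on the WT arrays. Again the groups did not overlap, with a change of 2.49 ± 0.44 (SE), or 5.63-fold (adjusted p = 0.000368). Both calls held when any 1 of the arrays compared was left out, the lowest changes being 1.54 in SPF and 2.25 in GF mice. An exact two-sided permutation test cannot go below p = 0.0286 with 4 arrays against 4 or below 0.1 with 3 against 3, and Irf4 reached these limits.

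At PND 3 and PND 10 the Irf4 values of the genotypes overlapped, and at PND 0 every Tg value lay below every WT value with a change of -0.40 that was not called (adjusted p = 0.743). At PND 10 the Tg pools had 4.32, 4.21, 5.86 and 6.71, against 4.87, 5.31, 5.10 and 6.81 in the WT pools. Within each genotype 1 or 2 pools stood far above the others, and the means of 5.28 ± 1.22 in Tg and 5.52 ± 0.88 in WT pools (SD, n = 4 each) did not differ beyond that spread (change -0.25, limma interval -1.02 to 0.53). At PND 3 the means were 3.73 ± 0.26 in Tg and 4.20 ± 0.34 in WT pools, and at PND 0 3.20 ± 0.02 in Tg and 3.60 ± 0.40 in WT pools. In WT mice Irf4 was lower at PND 42 in SPF housing than at PND 10, by a log2 change of -1.43 (adjusted p = 0.0356), and in Tg mice it was higher at PND 10 than at PND 3, by 1.55 (adjusted p = 0.0297). The sizes of these age steps moved most with replicate 4 of PND 10. Without WT replicate 4 of PND 10 the WT step was -0.997 (adjusted p = 0.223), and without Tg replicate 4 of PND 10 the Tg step was 1.07 (adjusted p = 0.175). Leaving out other single arrays gave WT steps of -1.64 to -1.35 and Tg steps of 1.36 to 1.90. Over all fits with 1 array fewer, the WT call was lost in 6 of 8 and the Tg call in 5 of 8. Both were also lost in fits on the compared groups (limma, adjusted p = 0.0755 and 0.271). At PND 10 over PND 3 Irf4 was also higher in WT mice, by 1.32, which was not called (limma, adjusted p = 0.272). Every WT pool of PND 10 lay above every WT pool of PND 3.

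Batf3, the AP-1 family factor needed for type 1 dendritic cells, had its lowest means at PND 0 and 3 in both genotypes. Its mean in WT cells was 3.86 ± 0.25 at PND 0, 3.93 ± 0.30 at PND 3, 5.42 ± 0.98 at PND 10 and 5.67 ± 0.34 at PND 42 in SPF housing (SD, n = 3 at PND 0 and 4 at the later ages). Tg cells had means of 3.63 ± 0.22, 3.49 ± 0.22, 4.83 ± 0.95 and 5.92 ± 0.31 at the same ages. No step between neighbouring ages passed the test in either genotype. At PND 10 Batf3 was higher than at PND 3 by 1.49 in WT cells (limma, adjusted p = 0.114). In Tg cells it was higher by 1.34 (limma, adjusted p = 0.0617), and the pools of the 2 ages did not overlap in either genotype. The pools of PND 10 were spread over more than 2 log2 units in both genotypes. In GF mice of PND 42 Batf3 measured 6.37, 6.61 and 6.99 on the Tg arrays, against 4.78, 5.40 and 5.95 on the WT arrays. All 3 Tg values were above all 3 WT values, but the change of 1.28 ± 0.42 (SE) was not called (limma, adjusted p = 0.0821); with array weights the change was 1.32 and the adjusted p 0.0437. In SPF mice the groups overlapped, with a change of 0.24 (interval -0.51 to 0.99).

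Irf8, a factor of monocytes, macrophages and type 1 dendritic cells, lay well above background at every age. It rose at PND 3 over PND 0 in Tg cells by 1.58 (adjusted p = 2.63e-06) and in WT cells by 2.03 (limma, adjusted p = 4.47e-08), a step at which 16.0% of all features were called higher in Tg and 14.0% in WT mice. From PND 3 on, its group means lay between 6.99 and 7.70. In adult GF mice it measured 6.96, 7.17 and 6.84 in Tg, against 7.51, 7.48 and 7.90 in WT cells. Every Tg value was below every WT value there and in SPF mice, where Tg cells had 7.21, 7.11, 6.77 and 7.18, against 7.52, 7.38, 7.29 and 7.42 in WT cells. Neither change was called, with -0.64 ± 0.25 (SE) in GF mice (adjusted p = 0.172) and -0.34 ± 0.22 (SE) in SPF mice (adjusted p = 0.583). When the PND 0 arrays were left out of the fit, the GF change of -0.64 had an adjusted p of 0.0183.

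Zbtb46, the factor shared by conventional dendritic cells, did not pass a test in any of the comparisons made. Its values in adult Tg mice were 3.75, 3.65, 3.68 and 3.80 in SPF and 3.76, 3.42 and 3.79 in GF housing. WT mice had 3.56, 3.50, 3.77 and 3.42 in SPF and 3.85, 3.65 and 3.57 in GF housing, and the genotypes overlapped in each. The intervals of its change ran over -0.09 to 0.41 in SPF and -0.32 to 0.26 in GF mice on a probe set near background, where they set no limit on a change of the transcript.

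Flt3, the growth factor receptor of dendritic cell precursors, stood near background until PND 10 in both genotypes, with group means between 3.08 and 3.18. At PND 42 in SPF housing it measured 3.81, 3.90, 4.35 and 4.31 in Tg, against 3.56, 3.31, 3.83 and 3.31 in WT cells. The highest WT value lay above the lowest Tg value, and the change was 0.59 ± 0.17 (SE) (adjusted p = 0.0342). In GF mice Tg cells had 3.73, 3.73 and 4.80, against 3.50, 3.33 and 3.68 in WT cells. There 1 Tg array stood high and 2 lay just above the highest WT array, and the change of 0.59 ± 0.19 (SE) was not called (adjusted p = 0.0795). It was 0.23 without Tg replicate 3 (adjusted p = 0.732), and it passed without Tg replicate 1 or 2 (0.77 in each, limma, adjusted p = 0.0233 and 0.0281). The SPF call was lost in 5 of 8 fits that left out 1 array, among them the fits without Tg replicate 3 or 4 and without WT replicate 1, 2 or 4, with a lowest change of 0.51. In Tg cells Flt3 was higher at PND 42 in SPF housing than at PND 10 by 0.94 (adjusted p = 0.00059).

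Ccr7, the receptor that guides mature dendritic cells and naive T cells to lymph nodes, measured 6.31, 6.02, 6.71 and 6.53 in SPF Tg cells of PND 42, against 5.31, 5.34, 5.86 and 5.29 in SPF WT cells. In GF mice the values were 6.39, 6.72 and 7.15 in Tg, against 5.41, 4.76 and 5.64 in WT cells. The genotypes did not overlap in either housing. The change was 0.94 ± 0.23 (SE), or 1.92-fold, in SPF mice (adjusted p = 0.0113) and 1.48 ± 0.27 (SE), or 2.79-fold, in GF mice (adjusted p = 0.000446). In SPF mice the call was lost without Tg replicate 3 (change 0.83, adjusted p = 0.0554), and in GF mice it held without any 1 array. Group means of Tg cells were 3.82 ± 0.22 at PND 0, 4.61 ± 0.30 at PND 3, 4.60 ± 0.45 at PND 10 and 6.39 ± 0.30 at PND 42 in SPF housing. Those of WT cells were 3.93 ± 0.39, 4.54 ± 0.25, 5.03 ± 0.33 and 5.45 ± 0.27 (SD, n = 3 at PND 0 and 4 at the later ages). In Tg cells Ccr7 rose at PND 3 over PND 0 by 0.79 (adjusted p = 0.0147) and at PND 42 over PND 10 by 1.79 (limma, adjusted p = 6.86e-06), and the earlier step was lost without Tg replicate 1 of PND 0 or Tg replicate 1 of PND 3, with array weights (adjusted p = 0.0812) and with weights by group variance (adjusted p = 0.0908). No step in WT cells passed.

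Clec9a, the receptor with which type 1 dendritic cells take up dead cells, had the largest difference between the genotypes among the 10 transcripts at PND 10. There it measured 4.93, 5.82, 4.71 and 3.99 in Tg pools, against 3.39, 4.37, 3.54 and 3.74 in WT pools. The lowest Tg pool lay under the highest WT pool, and the change of 1.10 ± 0.31 (SE), or 2.15-fold, missed the threshold (adjusted p = 0.0641). It passed without Tg replicate 4 (change 1.39, adjusted p = 0.0142) and without WT replicate 2 (change 1.31, adjusted p = 0.0417). At PND 42 in SPF housing Tg cells had 5.07, 4.86, 5.64 and 6.13, against 4.00, 4.75, 3.99 and 4.04 in WT cells. These groups did not overlap, and the change was 1.23 ± 0.31 (SE), or 2.34-fold (adjusted p = 0.0138); the call was lost without Tg replicate 4 (0.99, adjusted p = 0.0968) and without WT replicate 1 (1.16, adjusted p = 0.0515). In GF mice Tg cells had 4.81, 4.99 and 4.92, against 4.11, 3.41 and 4.44 in WT cells. No Tg value was as low as a WT value, yet the change of 0.92 ± 0.35 (SE) was not called (adjusted p = 0.167). Clec9a was also higher in Tg cells at PND 3 than at PND 0 by 0.98 (adjusted p = 0.0237), a call lost without Tg replicate 1 or 3 of PND 0 or Tg replicate 3 or 4 of PND 3. It was also lost with array weights (adjusted p = 0.129), with weights by group variance (adjusted p = 0.14) and in the fit on the compared groups (limma, adjusted p = 0.0552).

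Xcr1, the chemokine receptor of type 1 dendritic cells, had group means of 2.83 to 3.20 in the 10 groups and was called in 0 of the comparisons. In adult Tg cells it measured 2.97, 3.08, 3.28 and 3.08 in SPF and 3.20, 2.80 and 3.59 in GF mice. WT cells had 3.23, 3.14, 2.69 and 3.23 in SPF and 2.86, 3.08 and 2.89 in GF mice. The groups overlapped, with intervals of the change of -0.25 to 0.32 in SPF and -0.07 to 0.58 in GF mice. As Xcr1 was near background, its values set no limit on a change of the transcript.

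Cd209a, a C-type lectin of monocyte-derived and type 2 dendritic cells, stayed near background in every group mean. In SPF mice of PND 42 it measured 3.61, 3.56, 3.84 and 3.60 in Tg, against 3.16, 3.24, 3.06 and 3.12 in WT cells. All Tg values were above all WT values, with a change of 0.51 ± 0.14 (SE) (adjusted p = 0.0274). In GF mice Tg cells had 3.09, 3.71 and 4.33, against 3.03, 3.00 and 3.13 in WT cells. The lowest Tg array lay within the WT values, and the change was 0.66 ± 0.16 (SE) (adjusted p = 0.0115). The GF call rested on Tg replicate 3, without which the change was 0.35 (adjusted p = 0.226), and it was also lost without WT replicate 2 (0.63, adjusted p = 0.0529). The SPF call was lost without Tg replicate 3 or 4 and without WT replicate 1, 3 or 4, with a lowest change of 0.45.

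Itgae, the alpha E integrin (CD103) of type 1 dendritic cells and of T cells resident in epithelium, measured 5.0, 4.33, 5.33 and 4.79 in SPF Tg cells of PND 42, against 4.13, 3.88, 4.14 and 3.90 in SPF WT cells. In GF mice the Tg cells had 4.37, 4.62 and 5.85, against 4.12, 3.81 and 3.90 in WT cells. The genotypes did not overlap in either housing. The change was 0.85 ± 0.23 (SE) in SPF mice (adjusted p = 0.0278) and 1.00 ± 0.27 (SE) in GF mice (adjusted p = 0.0239). Without GF Tg replicate 3 it was 0.55 (adjusted p = 0.373), and the GF call was also lost without WT replicate 2 or 3. In SPF mice the call was lost without Tg replicate 1, 3 or 4 and without WT replicate 2 or 4, with a lowest change of 0.70. In Tg cells both lectin and integrin were higher at PND 42 in SPF housing than at PND 10, Cd209a by 0.72 (adjusted p = 0.00131) and Itgae by 1.10 (limma, adjusted p = 0.00357).

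Counted without a model, the Tg and WT arrays did not overlap for 6 of the 10 transcripts in SPF mice, 5 higher in Tg (Irf4, Ccr7, Clec9a, Itgae and Cd209a) and Irf8 lower. Over all features 5.59% were separated upward and 5.64% downward. In GF mice 7 of the 10 did not overlap, with Irf4, Ccr7, Clec9a, Itgae, Flt3 and Batf3 higher and Irf8 lower in Tg. There 9.21% of all features were separated upward and 12.1% downward. At the younger ages the genotypes were separated for 1 of the 10 at PND 0 (Irf4, lower in Tg), for 1 at PND 3 (Irf8, lower in Tg) and for 0 of the 10 at PND 10. The background was 4.21% of features upward and 6.69% downward at PND 0, 4.63% and 5.92% at PND 3, and 4.17% and 2.90% at PND 10.

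The age steps of the 10 transcripts were more often called in Tg than in WT cells. So were those of all features, at each step, and the difference in number was not tested. In Tg cells 3 rose at PND 3 over PND 0 (Irf8, Ccr7 and Clec9a), 1 at PND 10 over PND 3 (Irf4) and 4 at PND 42 over PND 10 (Ccr7, Flt3, Cd209a and Itgae), and 0 fell. Of all features, 16.0%, 0.518% and 2.58% were called higher at these steps, and 14.0%, 0.936% and 2.03% lower. In WT cells Irf8 rose at PND 3 over PND 0 and Irf4 fell at PND 42 below PND 10, and 0 passed at PND 10 over PND 3 (limma, 3 at an unadjusted p under 0.05). The background there was 14.0% called higher at the first step, 0.0311% higher at the second, and 1.32% higher and 1.19% lower at the last.

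Whether the genotype difference itself changed with age was tested as an interaction. The Tg effect on Irf4 was larger at PND 42 in SPF housing than at PND 3 by 2.09 ± 0.54 (SE) (adjusted p = 0.0455), 1 call of 10 where 0.705% of all features were called in this direction and 0.522% in the other. The Tg effect on Ccr7 was larger at PND 42 than at PND 10 by 1.37 ± 0.32 (SE) (adjusted p = 0.037), 1 call of 10 against 0.418% of all features called higher and 0.221% lower. Both calls were close to the threshold, and leaving out single arrays ended the Irf4 call in 14 of 16 fits and the Ccr7 call in 10 of 16, with changes of at least 2.00 and 1.19 throughout. The step of the Tg effect at PND 3 over PND 0 passed for 0 of 10 (limma, 0 at an unadjusted p under 0.05), against 1.69% of all features called higher and 1.58% lower. For the other 8 transcripts no such difference passed. For Irf4 the Tg effect at PND 42 over PND 10 did not pass either (1.87, limma, adjusted p = 0.142). Nor did that for Ccr7 at PND 42 over PND 3 (0.88, limma, adjusted p = 0.316). In these cases a call at PND 42 and none at the younger age does not show that the genotype effect differed between those ages. The same holds for Clec9a, whose change was 1.10 at PND 10 and 1.23 at PND 42.

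Housing made no difference that could be called. GF mice were compared with SPF mice within each genotype, and limma called 0 of 10 transcripts in Tg and 0 of 10 in WT mice, with 1 and 0 at an unadjusted p under 0.05. The background was low, at 0.0760% of all features called higher and 0.0657% lower in Tg mice, and 0.0104% higher and 0.0553% lower in WT mice. In GF Tg cells Irf4 averaged 6.75 ± 0.48 (SD, n = 3), against 5.72 ± 0.11 in SPF Tg cells (SD, n = 4). The change was 1.04 ± 0.41 (SE) (adjusted p = 0.472). The difference of the Tg effect between GF and SPF housing passed for 0 of 10 (limma, 0 at an unadjusted p under 0.05), against 0.00346% of all features, and for Irf4 it was 0.87 with an interval of -0.32 to 2.06.

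Arrays of a group that were high in 1 of these transcripts were often high in another. Of the 45 pairs, 35 had a positive correlation of deviations from the group means over the 36 arrays, 6 were above 0.5, and the median was 0.219 with a range of -0.387 to 0.779. The highest was that of Irf4 with Batf3, which at PND 10 were both highest in Tg replicate 4 and in WT replicate 4. Flt3, Cd209a and Itgae formed the other group, with values of 0.60 to 0.66 among themselves, and Flt3 reached 0.56 with Ccr7. Each of these transcripts was highest of its group in GF Tg replicate 3 (Flt3 4.80, Cd209a 4.33, Itgae 5.85 and Ccr7 7.15). The correlations were not computed without that array, so that they may rest on it. GF Tg replicate 3 was the highest of its group in 8 of the 10 transcripts, and the GF results above are given without it where it decided them. Clec9a varied apart from Irf4, at -0.39. These correlations describe arrays that share pools, RNA input and normalization, and they carry no test.

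**Figure D3:**
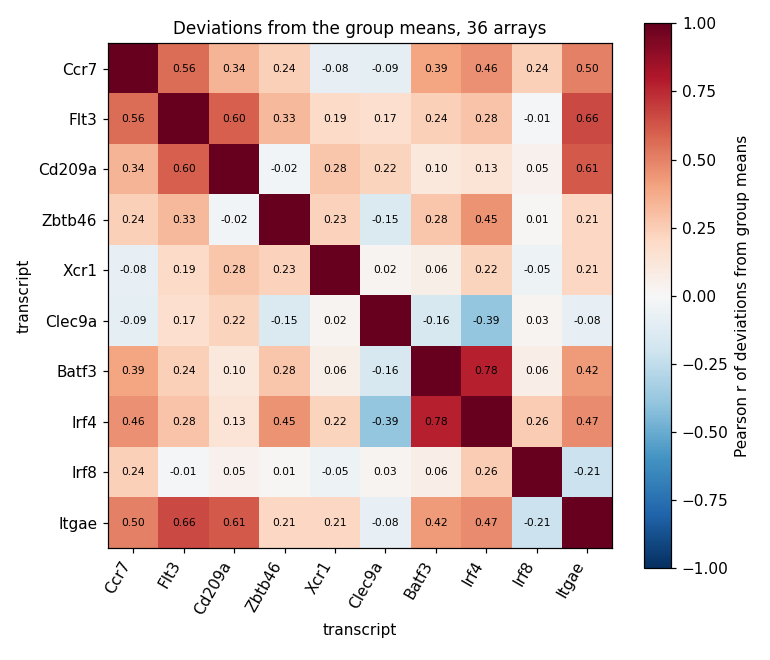
Pearson correlation of deviations from the group means for the 45 pairs of transcripts over 36 arrays, in colour from -1 to 1. Irf4 with Batf3 (0.78) and the block of Flt3, Cd209a and Itgae (0.60 to 0.66) stand out, while Irf8, Xcr1 and Clec9a have low values with most others. The block was not computed without GF Tg replicate 3, the array of its group highest in Flt3, Cd209a and Itgae.

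Over the 30 arrays of PND 3, 10 and 42, the genes whose levels ran most like each transcript came from several sources. Ccr7 ran closest to Fscn1, the actin-bundling protein of mature dendritic cells (r = 0.93), followed by Stat4 (0.90) and the chemokine Ccl22 (0.90). Stat4, a signal transducer of lymphocytes and dendritic cells, was the nearest gene to Flt3 (0.94), Cd209a (0.91) and Itgae (0.89), and Gata3, a factor of T cells and type 2 innate lymphoid cells, was second for Cd209a (0.90). Irf4 ran closest to Rnase2a (0.94), a ribonuclease of the eosinophil-associated family, then to Ccl24 (0.93) and to Cdh1, E-cadherin (0.93). Ccl24 is an eosinophil chemokine, and the study lists it, like Ccl17 and Ccl22, among its markers of alternatively activated macrophages. Which cells gave these transcripts was not tested. Batf3 was nearest to Syne1 (0.89), with the chemokine Ccl17 (0.87) also close. Clec9a had its nearest gene at 0.81 (Golga4) and Irf8 at 0.82 (Taldo1), while Xcr1 (0.70) and Zbtb46 (0.62) had no gene as close. Over all 36 arrays the nearest gene was the same for Flt3, Cd209a, Irf4, Batf3 and Zbtb46, but it was Slc39a12 for Ccr7 (0.91), with neither Fscn1 nor Ccl22 among its nearest 3, Stxbp3 for Itgae (0.87), Cxcr1 for Clec9a (0.85), Ltb for Xcr1 (0.65) and Itgal for Irf8 (0.94). These are the highest of all one-symbol features and so are partly set by the age and genotype differences that the groups share.

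Other dendritic cell genes were read from lists drawn up by subset. Among genes of mature or migratory dendritic cells 4 of 18 rose in SPF Tg mice and 6 of 18 in GF Tg mice, and 0 fell in either. Ccl17 rose by 2.89 in SPF mice (adjusted p = 0.00356) and by 3.17 in GF mice (adjusted p = 0.00598), and Fscn1 by 1.29 (adjusted p = 0.0368) and 1.62 (limma, adjusted p = 0.0199). Ccl22, like Ccl17 a ligand of the chemokine receptor CCR4, rose by 0.96 in SPF and 1.11 in GF mice, and Il12b, the shared chain of IL-12 and IL-23, by 0.97 and 0.89. The study lists Ccl17 and Ccl22 among its markers of alternatively activated macrophages, so that these genes are not particular to dendritic cells. Cd40 rose by 1.25 (adjusted p = 1.45e-05) and Pdcd1lg2, the ligand PD-L2, also rose in GF mice (limma, adjusted p = 0.00136). The median change of this list was 0.43 in SPF and 0.63 in GF mice.

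The lists of the subsets held few called genes. Of 9 other genes of type 1 dendritic cells 0 were called in SPF mice (limma, 3 at an unadjusted p under 0.05), while in GF mice Cd8a rose by 0.87 and Wdfy4, needed for cross-presentation, fell by 0.56. Cadm1, a defining marker of this subset, changed by 0.22 in SPF and -0.03 in GF mice. Of 12 other genes of type 2 dendritic cells, Mgl2, a lectin also found on alternatively activated macrophages, rose by 1.09 in SPF mice (adjusted p = 0.0394) and by 1.92 in GF mice (adjusted p = 0.000811). Kmo rose by 0.62 in SPF mice, and Ffar2 fell by 0.94 in SPF and by 0.82 in GF mice. Among 8 plasmacytoid genes Cox6a2 alone rose, by 1.46 in SPF and 2.04 in GF mice, and Siglech, the defining marker of that lineage, was not called. Of 20 genes of dendritic cell transcription factors and growth factor signalling 1 rose and 1 fell in SPF and 1 rose in GF mice. Of 8 MHC class II genes, whose products present antigen, H2-DMa fell in SPF mice by 0.93 and Ciita rose in GF mice by 0.45, and H2-Aa had changes of 0.42 and 1.18 that were not called (limma, adjusted p = 0.852 and 0.301). At PND 3, where 0 of the 10 transcripts were called, 5 of the 18 mature dendritic cell genes rose in Tg cells, with Traf1 (1.73), Tnfrsf9 (1.46), Relb (1.34) and Cd86 (1.28) the largest.

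Markers of other cells moved at the same age. Of 16 T cell genes 5 rose in SPF and 7 in GF Tg mice, and the list's mean level on single arrays was 4.21 to 4.73 in SPF Tg, against 3.79 to 4.06 in SPF WT mice, and 4.47 to 4.93 in GF Tg, against 3.78 to 3.85 in GF WT mice. Cd3e, part of the T cell receptor complex, averaged 4.75 ± 0.67 in SPF Tg and 3.63 ± 0.54 in SPF WT mice (SD, n = 4 each), a rise of 1.12 (adjusted p = 0.00645), and it rose by 1.71 in GF mice (adjusted p = 0.00031). Il7r, the interleukin-7 receptor, rose by 4.27 in SPF and by 4.96 in GF mice. It is part of the T cell list and adds to its mean, while 11 of the 16 genes were near background in each adult Tg group. Of 6 measured genes of type 2 innate lymphoid cells 2 rose in SPF and 4 in GF mice, led by Il13 at 2.68 and 3.34. Of 6 eosinophil genes 1 rose in SPF and 3 in GF mice, led by Ear6 (3.08) and Prg2 (3.68), and Epx, a defining eosinophil marker, was near background in all adult groups. Of 11 neutrophil genes 2 rose and 1 fell in SPF and 3 rose and 1 fell in GF mice, after depletion of granulocytes, with Retnlg at 2.66 and 5.02. Of 8 ciliated and club cell genes 3 rose and 1 fell in each housing, Scgb1a1, the club cell secretory protein, rising by 2.02 and 1.96 and Epcam falling in both (adjusted p = 5.43e-07 and 0.000808). Itgam, the CD11b integrin of monocytes, type 2 dendritic cells and recruited macrophages, rose by 3.28 in SPF mice (adjusted p = 2.2e-06) and by 4.75 in GF mice (limma, adjusted p = 5.59e-08).

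The B cell and NK cell lists held no called gene at PND 42. Of 10 B cell and 9 NK cell genes 0 were called in adult mice of either housing (limma, 1 B cell gene in each housing and 0 NK cell genes in SPF and 2 in GF mice at an unadjusted p under 0.05). Most of these genes were near background, where they set no limit on a change. They were 9 of 10 B cell genes in each adult group. Of the 9 NK cell genes they were 7 in GF Tg mice and 9 in each other adult group. The natural killer marker Ncr1 was among them, with 2.97 in SPF Tg, against 3.12 in SPF WT mice. Of 18 alveolar macrophage genes 3 rose and 2 fell in SPF mice and 2 rose and 2 fell in GF mice, and the list's mean level per array was 10.3 to 10.4 in SPF Tg, against 10.3 to 10.4 in SPF WT mice. Of 11 measured monocyte genes 1 rose and 1 fell in SPF and 2 rose and 2 fell in GF mice. Of 11 interstitial macrophage genes 0 were called in SPF mice (limma, 2 at an unadjusted p under 0.05) and 4 rose in GF mice. Of 7 mast cell and basophil genes 0 were called in SPF mice (limma, 0 at an unadjusted p under 0.05) and 1 rose in GF mice, and of 8 alveolar type 2 cell genes 1 rose and 1 fell in SPF and 1 rose in GF mice. The list whose deviations within groups ran most like those of a called transcript was that of mature dendritic cells for Ccr7 (0.597), plasmacytoid cells for Flt3 (0.724), NK cells for Cd209a (0.724), MHC class II for Irf4 (0.740) and eosinophils for Itgae (0.653, with T cells at 0.652), while no list passed 0.175 for Clec9a, each over 36 arrays and as a description. These correlations, too, were not computed without GF Tg replicate 3. The part of T cells, innate lymphoid cells, eosinophils, neutrophils or epithelial cells in the levels of the 10 transcripts was not tested.

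**Figure D4:**
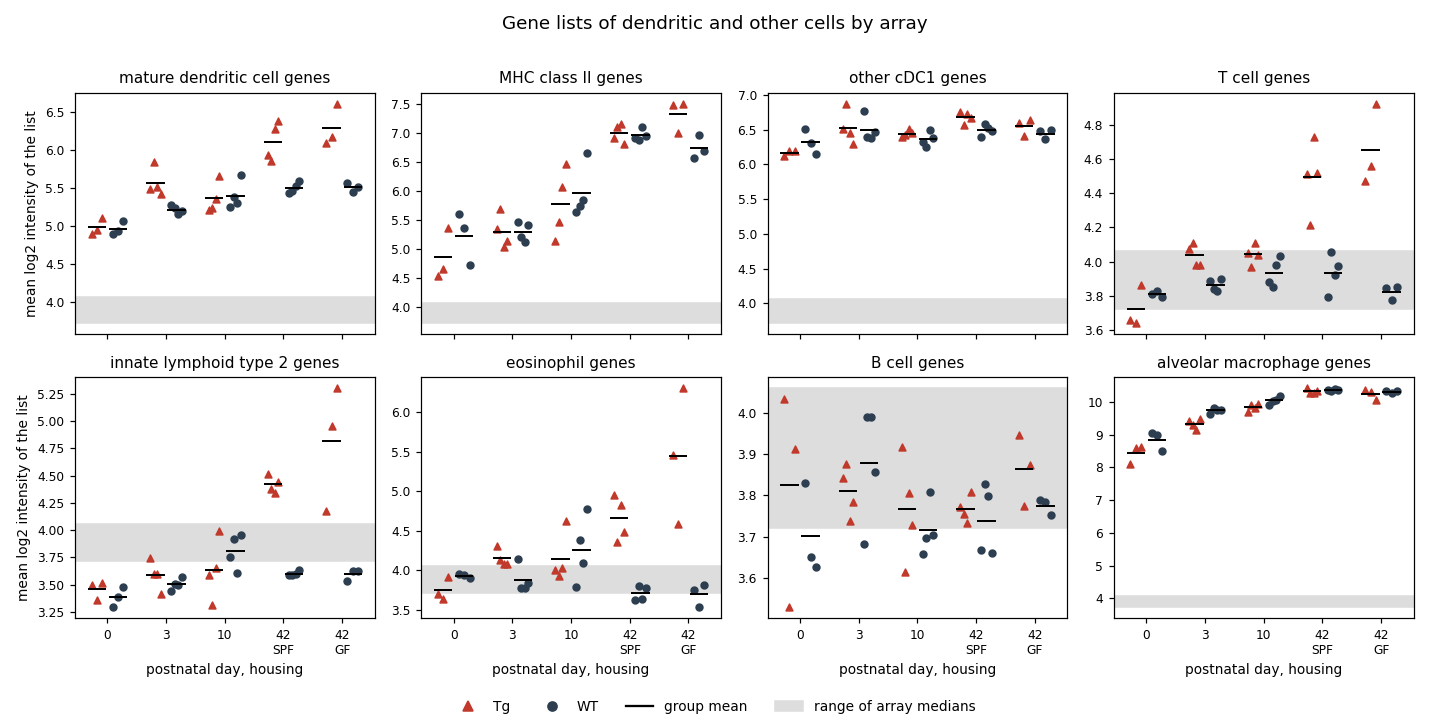
Mean log2 intensity per array of 8 gene lists, by postnatal day and housing, with Tg arrays as triangles to the left of WT arrays as circles and the range of array medians in grey. At PND 42 the mature dendritic cell, T cell, innate lymphoid type 2 and eosinophil lists lie higher on every Tg array than on every WT array of the same housing, and the B cell and alveolar macrophage lists overlap. The mature dendritic cell list holds Ccl17 and Ccl22, which the study also lists as macrophage markers. In each adult Tg group 11 of 16 T cell, 3 of 6 innate lymphoid, 3 of 6 eosinophil and 9 of 10 B cell genes were near background.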

How the data were processed

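Amplified RNA of lavage macrophages was measured on Mouse Gene 1.0 ST arrays of Affymetrix. The authors deposited log2 intensities, made with RMA in Partek (version 6.5 in the submitters' processing notes) with sequence adjustment, quantile normalization and median polish, which can compress differences of dim features. Of 35556 features, 6616 with identifiers below the lowest annotated one, presumed array controls, were left out. The 28940 analysed included 5841 without a gene symbol. No detection call or scan batch was used, 0 columns were unused, and the number of arrays limits the precision.

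A linear model with 1 mean per group was fitted to all 36 arrays with limma 3.58.1 in R 4.3.3, as the study's analysis of variance with linear contrasts. From it 17 contrasts were drawn, with two-sided moderated tests and Benjamini-Hochberg adjustment over all 28940 features. A gene rose or fell where its adjusted p was at most 0.05. The script was tested on simulated data with known changes. Nothing states that arrays of PND 42 came from separate litters, so that p-values measure the spread between these samples.

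The 10 transcripts and the 21 gene lists were chosen with earlier results of these data known. Named in every comparison were the 10 transcripts. Of each other list, up to 4 called genes with the largest change were named per comparison, plus fixed defining markers, and for each transcript up to 3 genes of highest correlation. Lists of monocytes, innate lymphoid type 2 cells and erythroid cells had under 80% of their genes measured. Alternatives were other limits, fits on the compared groups alone or without PND 0, array and group weights, renormalization, median centring, other variance priors, filters on features, the replicate number as a block, and omission of single arrays.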

Additional observations from a re-analysis of the deposited data

Results flagged for a closer look

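Within groups of 4 arrays, 60 sets of values were examined and 5 held 1 array far from the other 3, where chance marks about 1 in 20. Among Tg mice of PND 42 in SPF housing, replicate 4 had an Irf4 level of 5.5527, below the 5.77 to 5.78 of the others, and it stayed above every WT value. Among WT mice of PND 42 in SPF housing, replicate 3 was high in Ccr7 (5.8586, against 5.29 to 5.34 in the others) and low in Xcr1 (2.6896, against 3.14 to 3.23), and replicate 2 was high in Clec9a (4.7475, against 3.99 to 4.04). At PND 10, WT replicate 2 had a Zbtb46 level of 3.8399, where the other pools had 3.60 to 3.63. The Ccr7 and Clec9a values of these WT arrays raise the WT mean, and the SPF changes without them were 1.08 and 1.41.

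The Tg effect differed between ages for 2 transcripts by the interaction test. It was larger for Irf4 at PND 42 than at PND 3, by 2.0934 (limma, adjusted p = 0.0455), and larger for Ccr7 at PND 42 than at PND 10, by 1.3734 (adjusted p = 0.037).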

How the results depend on the processing

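Counts of called transcripts (of 10) moved as follows. The main counts were 0 at PND 10, 6 in SPF and 4 in GF mice of PND 42, 2 over the WT age steps, 8 over the Tg age steps and 2 among the interactions. At PND 10 a filter on dim features and 1 feature per gene each gave 1 (Clec9a, adjusted p = 0.0364 and 0.0465), with fewer features tested. A 2-fold limit beside the adjusted p gave 2 in SPF mice and 4 over the Tg age steps. The fit on GF arrays alone gave 2, and array weights gave 6 in GF mice, adding Batf3 (adjusted p = 0.0437) and Irf8 (-0.62, adjusted p = 0.0322). Irf8 was also called in GF mice without PND 0 or with weights by group variance, with 5 calls each. Without moderation, or with all features kept, the WT age steps gave 1 and the interactions 0, and renewed quantile normalization also gave 0 interactions. The cause of these moves was not tested except where fewer features or a second limit made them. Leaving out 1 array at a time gave 0 at PND 0, 0 at PND 3, 0 to 1 at PND 10, 2 to 6 in SPF mice, 2 to 5 in GF mice, 1 to 3 over the WT and 6 to 9 over the Tg age steps, 0 for housing and 0 to 3 interactions.

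Some directions turned, all of changes that were not called. Median centring gave -0.024 for Flt3, -0.032 for Cd209a and -0.010 for Itgae at PND 0, and -0.015 for Cd209a and -0.034 for Xcr1 at PND 3. Array weights gave 0.00077 for Flt3 and -0.033 for Xcr1 at PND 3, and 0.020 for Flt3, 0.0044 for Zbtb46, 0.091 for Irf4 and 0.064 for Irf8 at PND 10, and renewed quantile normalization gave -0.0086 for Xcr1 at PND 3. Leaving out 1 array turned such changes in 42 fits, with ranges over all fits that left out 1 array of -0.24 to 0.11 for Ccr7, -0.068 to 0.094 for Flt3, -0.059 to 0.093 for Cd209a, -0.10 to 0.018 for Xcr1, -0.099 to 0.040 for Clec9a, -0.22 to 0.53 for Irf8 and -0.067 to 0.15 for Itgae at PND 0, -0.059 to 0.19 for Ccr7, -0.070 to 0.025 for Flt3, -0.025 to 0.056 for Cd209a and -0.13 to 0.077 for Xcr1 at PND 3, -0.088 to 0.032 for Flt3, -0.19 to 0.046 for Zbtb46, -0.058 to 0.046 for Xcr1, -0.72 to 0.18 for Irf4, -0.15 to 0.18 for Irf8 and -0.20 to 0.11 for Itgae at PND 10, -0.097 to 0.083 for Xcr1 at PND 42 in SPF housing, and -0.10 to 0.087 for Zbtb46 at PND 42 in GF housing.

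Replicate numbers did not pair the arrays. Of 18 pairs of arrays with the same number 1 had a correlation of deviations above 0.1 (range -0.126 to 0.244). With the replicate block, 0, 0 and 0 of the 10 were called at PND 0, 3 and 10, 6 in SPF and 5 in GF mice, where Flt3 was gained (0.59, adjusted p = 0.0486), 2 over the WT and 9 over the Tg age steps, 0 for housing and 2 interactions.

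Flt3, Cd209a, Zbtb46 and Xcr1 lie near background, where arrays can compress changes, and the dim filter leaves them out. A mean over all features of a gene gave the same values, each transcript having 1 feature.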
